A study of Rattus norvegicus with 64 samples.

Results

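Metabotropic glutamate receptors are encoded by the Grm genes. The 6 genes Grm2, Grm3, Grm4, Grm5, Grm7, and Grm8 were taken by their gene symbol from the 17260 genes counted in the entorhinal cortex of Long Evans rats, and all 6 passed the filter on low counts. RNA was sequenced after depletion of ribosomal RNA from layer II (LII) and from layers III to VI together (LDeep) of the medial (MEC) and the lateral entorhinal cortex (LEC), on postnatal days 2, 9, 23, and 45 (P2, P9, P23, P45). The labels of the 64 libraries name no treatment and no engineered allele in any group, and each region and layer held 5 libraries of P2, 4 of P9, 3 of P23, and 4 of P45, in 16 groups. Layers were cut by hand under a microscope, so each library is a mixture of the cell types of its layer. A replicate number was read as 1 animal within an age, and on this reading the libraries came from 16 animals. The labels do not state it, and the study says it of the MEC layers in its microRNA samples. Layer and region contrasts were fitted without this pairing, and where the replicate number as a block changed a call, that value is given too.

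Metabotropic glutamate receptors are G protein-coupled receptors that respond to the same transmitter as the fast glutamate-gated channels but act over a slower time course. Group I, to which Grm5 belongs, couples to Gq and phospholipase C and sits mainly at the edge of the postsynaptic membrane. Group II (Grm2 and Grm3) and group III (Grm4, Grm6, Grm7, and Grm8) couple to Gi/o, lower adenylyl cyclase activity, and in cortex are known above all as presynaptic brakes on transmitter release. Grm3 and Grm5 are also expressed by astrocytes, and in the developing forebrain Grm5 is the main group I receptor.

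On the rat build Rn6 all 6 genes were read from their annotated exons, and no exon of another annotated gene overlapped theirs. Grm5, the group I receptor, lies on chromosome 1 (151218929 to 151783392, plus strand, 9 exons). Grm2 is the compact member, with 6 exons on chromosome 8 (115344999 to 115358046, minus strand), and its partner in group II, Grm3, has 6 exons on chromosome 4 (21317695 to 21560490, plus strand). Of group III, Grm4 lies on chromosome 20 (6745682 to 7094630, minus strand, 9 exons). Grm7 (142452616 to 143367578, plus strand, 10 exons) and Grm8 (54474663 to 55399118, minus strand, 10 exons) are the long members and lie far apart on chromosome 4.

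Promoter sequences from RefSeq (build GRCr8, 250 bases before to 50 bases after the annotated start) were found for 3 of the 6 genes, namely Grm5, Grm7, and Grm8. They are printed as members whose levels differed between layers, Grm5 and Grm7 (the latter in the LEC) towards LDeep and Grm8 towards LII, as described further on. Grm3 differed between layers as well, and no promoter of it was used here. Capitals mark the GC box (GGGCGG, either strand).
Grm5 (chr1:150733503-150733802, plus strand): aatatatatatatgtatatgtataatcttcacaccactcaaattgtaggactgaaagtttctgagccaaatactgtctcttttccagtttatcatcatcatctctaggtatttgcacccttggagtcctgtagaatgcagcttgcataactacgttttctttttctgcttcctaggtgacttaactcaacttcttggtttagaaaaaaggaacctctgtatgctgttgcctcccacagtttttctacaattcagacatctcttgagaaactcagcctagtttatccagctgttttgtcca
Grm7 (chr4:145286476-145286775, plus strand): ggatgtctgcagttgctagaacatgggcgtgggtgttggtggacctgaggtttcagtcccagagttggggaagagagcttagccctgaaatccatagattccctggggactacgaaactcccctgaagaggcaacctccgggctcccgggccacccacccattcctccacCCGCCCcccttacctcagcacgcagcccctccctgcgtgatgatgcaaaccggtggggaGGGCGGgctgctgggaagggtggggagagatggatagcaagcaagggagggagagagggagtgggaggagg
Grm8 (chr4:57687457-57687756, minus strand): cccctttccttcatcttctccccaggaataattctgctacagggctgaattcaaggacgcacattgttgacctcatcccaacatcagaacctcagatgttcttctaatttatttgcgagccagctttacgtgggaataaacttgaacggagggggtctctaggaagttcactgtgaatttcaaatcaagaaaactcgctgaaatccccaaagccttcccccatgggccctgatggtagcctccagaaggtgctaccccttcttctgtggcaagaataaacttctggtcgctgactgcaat
The 3 windows differed in base composition. The Grm7 window held 62.0% G and C, 9 CG pairs, and 2 GC boxes, whereas those of Grm8 (47.3% G and C, 6 CG pairs) and Grm5 (37.3%, 1 CG pair) held no GC box. A GC box was present in 33.1% of 33469 promoters of the same length, and the median G and C content of all promoters was 51.7%. No window held the E-box CACGTG (6.4% of promoters), the cyclic AMP response element TGACGTCA (1.8%), or the TATA box TATAAA (14.2%), each searched on both strands.

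Between 3894334 and 11439143 read pairs were counted per library (median 7569157.5), fewest on median in LEC LII (5575770) and most in MEC LDeep (8377045.5). Counts of the members ranged from a lowest of 25 for Grm4 to a highest of 6211 for Grm5. The layers differed as groups in their markers. Layer II neuron genes (3 genes, medians of 836 to 1122 in summed CPM, counts scaled to library size, in LII groups against 229 to 584 in LDeep groups) and deep-layer neuron genes (8 genes, 184 to 480 against 555 to 848) had group medians that did not overlap between layers. In all, 6 libraries stood apart from their groups. MEC LII P2 replicate 1 held 0.6 CPM of Slc17a7, the vesicular transporter of cortical glutamatergic neurons, against 237 to 2234 CPM in the 58 libraries that did not stand apart, and it was high in Zic1 (432 CPM, against 0.969 to 26.7) and in the ciliary gene Foxj1 (135 CPM, against 0.856 to 10.4). MEC LDeep P2 replicate 1 resembled LII in its layer II neuron genes (900 summed CPM, where its group had a median of 458) and its meningeal genes (1104, where its group had a median of 71.9). In the 4 libraries MEC LII P23 replicate 2, MEC LDeep P45 replicate 2, LEC LII P45 replicate 2, and LEC LDeep P45 replicate 2, 6 genes of cerebellar neurons, chosen after the data were seen, summed to 119 to 777 CPM, against 0.547 to 31.2 in the other 60 libraries. Where a call described below changed without them, both values are given. In bulk tissue, fewer cells of a type and less RNA per cell cannot be told apart.

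Relative to exon length, Grm5 was the most abundant member and Grm4 the least. Over the 64 libraries the median level per exon length (RPKM, CPM divided by the exon length in kilobases) was 88 for Grm5 (41.5 to 170), 49.7 for Grm3 (18.8 to 72.9), 36 for Grm7 (22.7 to 59.7), 13.3 for Grm8 (2.69 to 26.1), 8.02 for Grm2 (0.786 to 36.4), and 4.72 for Grm4 (0.88 to 32.1). The ranges of neighbours in this order overlapped. Grm6, a group III receptor outside the 6 that is best known from retinal bipolar cells, had a median level of 0.698 RPKM. The genes also differed in how far the 16 group means spread, from 1.03 on the log2 scale for Grm7 and 1.5 for Grm5 to 3.04 for Grm2 and 3.15 for Grm4. When the 16 groups were ranked for each gene, neighbours in rank overlapped in their libraries in 14 or 15 of 15 pairs, so hardly any neighbours differed beyond their spread.

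**Figure D1:**
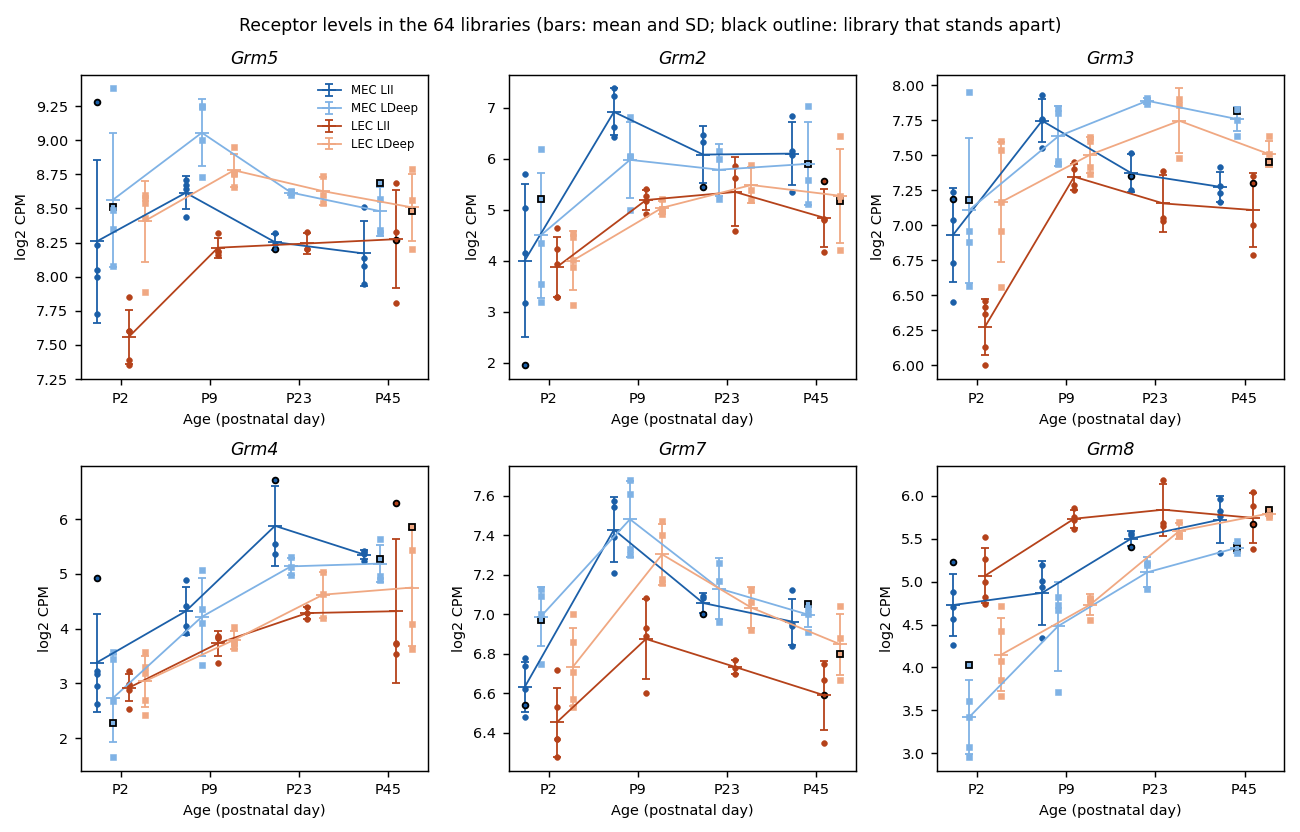
Level of each receptor gene in the 64 libraries, as log2 CPM (y axis) against age (x axis), in MEC LII, MEC LDeep, LEC LII, and LEC LDeep. Points are libraries, cross bars and whiskers are the mean and SD of 5 (P2), 4 (P9), 3 (P23), and 4 (P45) libraries, and a black outline marks a library that stood apart. All 6 genes rise from P2 to P9, Grm4 and Grm8 go on rising to P23, and within each region the LII points of Grm8 lie above the LDeep points at P2.

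The contrasts between ages asked when in postnatal development the receptors change. Counts were summed over the libraries of each animal before the test, giving 5, 4, 3, and 4 animals. From P2 to P9 all 6 members were up-regulated, where 27.7% of the 13092 genes tested were up-regulated and 54.0% changed in either direction. The median log2 fold change (LFC) was 0.58 over the members and 0.003 over all genes tested.

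Grm2, a presynaptic autoreceptor of group II, showed the steepest rise. Its level in the 5 P2 animals was 4.03, 4.56, 3.17, 5.32, and 3.80 log2 CPM, and in the 4 P9 animals it was 6.14, 6.39, 5.81, and 5.56. The groups did not overlap, and the LFC was 1.67 (SE 0.36, adjusted p = 0.0011). Its rise was found in MEC LII alone (LFC 2.49, adjusted p = 0.0029), LEC LII alone (1.21, adjusted p = 0.0038), and LEC LDeep alone (0.97, adjusted p = 0.035), and it was not called in MEC LDeep alone (1.24, adjusted p = 0.074).

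Grm7, the widely distributed group III receptor of the presynaptic active zone, changed with the smallest error of the 6. The P2 animals had 6.69, 6.95, 6.61, 6.66, and 6.72 log2 CPM, and the P9 animals 7.25, 7.33, 7.22, and 7.35. The LFC was 0.57 (SE 0.06, adjusted p = 2.9e-06), and the rise was called in each of the 4 region and layer combinations taken alone, with LFCs of 0.39 to 0.8. From P9 to P23 Grm7 turned and was down-regulated by 0.30 on the log2 scale (SE 0.07, adjusted p = 0.0025), to 7.06, 7, and 6.93 log2 CPM in the 3 P23 animals, below all 4 P9 animals. The level at P9 was thus the highest of the 4 ages. By region and layer alone, the fall was called in MEC LII (-0.42, adjusted p = 0.006) and MEC LDeep (-0.35, adjusted p = 0.04). It was not called in LEC LDeep (-0.27, adjusted p = 0.12) or LEC LII (-0.2, adjusted p = 0.25).

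The other members that rose from P2 to P9 did so by smaller steps or with more scatter. Grm3 rose by 0.60 (SE 0.12, adjusted p = 0.00051), from 6.98, 7.12, 6.47, 7.35, and 6.79 log2 CPM at P2 to 7.51, 7.56, 7.61, and 7.55 at P9, again without overlap. Grm4 rose by 0.86 (SE 0.26, adjusted p = 0.011), Grm8 by 0.53 (SE 0.13, adjusted p = 0.0026), and Grm5 by 0.39 (SE 0.13, adjusted p = 0.016), and for these 3 genes the animals of the 2 ages overlapped. Without the animals of the libraries that stood apart, all 6 rises were called as well, with LFCs from 0.48 for Grm5 to 1.6 for Grm2. By region and layer alone, Grm3 was called in MEC LII (0.79) and LEC LII (1.04) only. Grm4 was called in MEC LDeep (1.49) only, and Grm5 in LEC LII (0.61) only. Grm8 was called in all but MEC LII (0.14, adjusted p = 0.61).

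From P9 to P23 Grm4 and Grm8, both presynaptic group III receptors, rose further. This makes 2 members up-regulated and 1 down-regulated, where 55.8% of all genes tested were called, 27.1% up-regulated and 28.7% down-regulated. The median LFC over the members was -0.12 and over all genes -0.008. Grm4 went from 4.08, 4.43, 3.88, and 3.69 log2 CPM at P9 to 4.84, 5.64, and 4.94 at P23 (LFC 1.13, SE 0.28, adjusted p = 0.003). The second P23 animal, the highest, includes the library of MEC LII with 777 CPM of cerebellar neuron genes. Without the animals of the libraries that stood apart the LFC was 0.85 (adjusted p = 0.0043). Taken alone, the rise of Grm4 was called in MEC LII (1.6, adjusted p = 0.012) and not in the other combinations of region and layer (0.5 to 0.88). The MEC LII fit includes the library with cerebellar genes, which held 105 CPM of Grm4, and was not repeated without it. The MEC LII libraries had 3.92 to 4.89 log2 CPM of Grm4 at P9 and 5.37 to 6.72 at P23. Grm8 went from 5.04, 5.06, 5.13, and 4.69 to 5.46, 5.44, and 5.57 (LFC 0.49, SE 0.14, adjusted p = 0.0084), and neither gene overlapped between the 2 ages. By region and layer, the rise of Grm8 was called in LEC LDeep alone (0.87, adjusted p = 0.00089). It was not called in MEC LDeep (0.59, adjusted p = 0.069), MEC LII (0.56, adjusted p = 0.06), or LEC LII (0.08, adjusted p = 0.76). Grm2, Grm3, and Grm5 were not called at this step, with LFCs of -0.25 (95% interval -1.05 to 0.55), 0.02 (-0.25 to 0.28), and -0.27 (-0.55 to 0.02).

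From P23 to P45 edgeR called none of the 6 members, and the same count was obtained at an unadjusted p below 0.05, with DESeq2, and with limma voom. Few genes were called at this step at all (0.458% of those tested). The LFCs of the members lay between -0.15 for Grm4 (95% interval -0.7 to 0.41) and 0.19 for Grm8 (-0.09 to 0.47), and the widest interval was that of Grm2 (-0.84 to 0.75).

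When P23/P45 animals were compared with P2/P9 animals, Grm4 was up-regulated by an LFC of 1.49 (SE 0.19, adjusted p = 2.4e-06), Grm8 by 0.85 (SE 0.1, adjusted p = 4.8e-07), and Grm3 by 0.25 (SE 0.09, adjusted p = 0.017), where 77.3% of all genes tested were called, 38.3% up-regulated and 39.0% down-regulated. Without the animals of the libraries that stood apart, Grm4 (1.3, adjusted p = 1.6e-06) and Grm8 (0.93, adjusted p = 4.2e-07) were called and Grm3 was not (0.25, adjusted p = 0.056). Grm2 had an LFC of 0.56 (95% interval 0.03 to 1.09, adjusted p = 0.07), Grm7 of -0.08 (-0.18 to 0.01), and Grm5 of -0.1 (-0.29 to 0.09). These averages hide the order of events, since Grm2, Grm5, and Grm7 reached their highest mean at P9. Older against younger, Grm2 was called by limma voom (0.57, adjusted p = 0.044). By region and layer alone, Grm2 was called in LEC LDeep (0.93, adjusted p = 0.0035) and LEC LII (0.55, adjusted p = 0.03). In MEC LDeep (0.48) and MEC LII (0.4) it was not. For Grm5 the combinations of region and layer taken alone did not all point the same way, with LFCs of -0.32 in MEC LII, -0.29 in MEC LDeep, and -0.03 in LEC LDeep, none of them called, and a called LFC of 0.34 in LEC LII (adjusted p = 0.0093). A test of whether the difference between regions changed with age gave -0.47 for Grm5 (SE 0.15, adjusted p = 0.058).

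**Figure D2:**
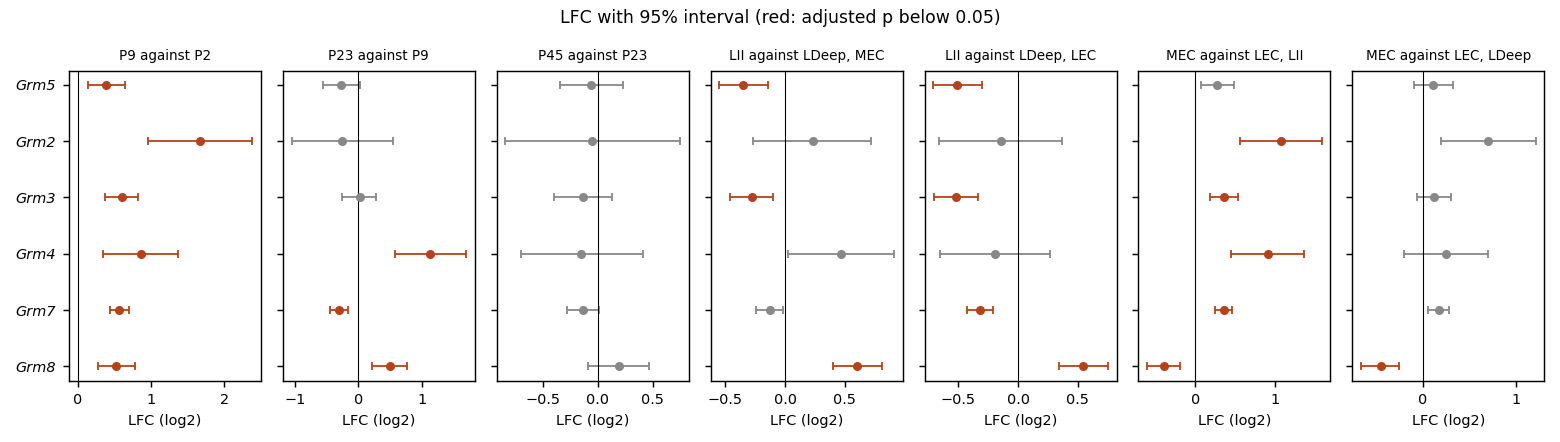
LFC of each receptor gene (x axis, log2 scale, positive values higher in the group named first) in 7 contrasts, with 95% intervals. Red marks an adjusted p below 0.05 in edgeR over all genes tested, and axes differ between contrasts. All 6 genes are red and positive for P9 against P2, none is red for P45 against P23, and Grm8 points opposite to Grm5, Grm3, and Grm7 in both layer contrasts.

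The layer contrasts asked which receptors separate LII, the layer that holds the stellate cells, from the deeper layers. Grm8 was higher in LII in both regions, whereas Grm5 and Grm3 were higher in LDeep in both regions and Grm7 in the LEC. In the MEC 3 members were called, where 40.8% of the 12521 genes tested were, 1 of the members higher in LII (21.0% of genes) and 2 higher in LDeep (19.9%). In the LEC 4 members were called, where 38.6% of genes were, 1 higher in LII (17.4%) and 3 higher in LDeep (21.2%). The median LFC over the members was 0.05 in the MEC and -0.26 in the LEC, and over all genes it was -0.03 and -0.057.

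Grm8 had an LFC between LII and LDeep of 0.6 in the MEC (SE 0.1, adjusted p = 5.3e-06) and of 0.54 in the LEC (SE 0.1, adjusted p = 2.5e-05), and was higher in LII in 15 of 16 and 14 of 16 animals. In the MEC its layer LFC was highest at P2, and in the LEC it was 0.91 at P2 and 1.01 at P9. The 5 libraries of MEC LII at P2 had 37.2, 29.2, 18.8, 25.8, and 23.3 CPM. Those of MEC LDeep had 16.1, 10.5, 7.5, 8.12, and 11.9 CPM. Every LII library exceeded every LDeep library, and the LFC was 1.3 (SE 0.2, adjusted p = 2e-05), in a contrast that called 9.23% of genes, 5.69% of them higher in LII and 3.55% higher in LDeep, each as a share of all tested. Without the libraries that stood apart, which include the first listed of each group, it was 1.36 (adjusted p = 1.1e-05).

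In the LEC at P2 the LII libraries had 45.5, 28.0, 26.4, 38.4, and 31.7 CPM of Grm8. The LDeep libraries had 21.2, 26.0, 16.7, 12.5, and 14.2 CPM. The groups touched without overlap, with an LFC of 0.91 (SE 0.19, adjusted p = 4e-04), where 7.02% of genes were higher in LII. At P9 the layers of the LEC were fully apart, with 52.3, 48.7, 53.7, and 57.9 CPM in LII and 23.2, 27.0, 27.6, and 27.9 CPM in LDeep (LFC 1.01, SE 0.2, adjusted p = 0.00028), where 10.3% of genes were higher in LII. In the MEC at P9 the layers overlapped, with 36.2, 31.9, 30.4, and 20.1 CPM in LII and 28.0, 25.2, 26.3, and 12.9 CPM in LDeep, and the LFC of 0.36 (SE 0.21, adjusted p = 0.22) was not called, where 10.8% of genes were called higher in LII.

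At P23 and P45 no layer difference of Grm8 was called in either region, and in the MEC the LFCs were close to that of P9. In the MEC at P23, LII had 47.3, 41.9, and 46.2 CPM and LDeep 36.5, 37.1, and 29.9 CPM, which did not overlap (LFC 0.39, SE 0.23, adjusted p = 0.29), where 10.6% of genes were called higher in LII. In the LEC at P23, LII had 49.9, 51.2, and 73.0 CPM and LDeep 46.2, 46.3, and 51.6 CPM (LFC 0.27, SE 0.23, adjusted p = 0.52), where 6.77% were. Neither was called, with 95% intervals of -0.07 to 0.85 in the MEC and -0.18 to 0.73 in the LEC.
At P45 the layers of both regions overlapped. MEC LII had 54.4, 56.4, 40.4, and 62.6 CPM against 41.4, 41.6, 44.1, and 40.2 CPM in LDeep (LFC 0.35, SE 0.2, adjusted p = 0.28). LEC LII had 41.4, 50.6, 58.7, and 66.0 CPM against 55.3, 57.1, 54.7, and 54.0 CPM in LDeep (LFC -0.02, SE 0.2, adjusted p = 0.97). In the LEC at P45 the LDeep libraries thus lay inside the range of LII.

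Whether the layers came closer with age was tested in a single contrast. For Grm8 the difference between LII and LDeep was smaller at P23/P45 than at P2/P9 by 0.65 on the log2 scale (LFC -0.65, SE 0.15, adjusted p = 0.0019), the 1 member called in a contrast that called 8.80% of genes, 4.83% with the positive and 3.97% with the negative sign. Without the libraries that stood apart the value was -0.64 (adjusted p = 0.003). The same change, read layer by layer, was a steeper rise in LDeep than in LII. In LDeep the LFC of older against younger libraries was 1.27 in the MEC (adjusted p = 3.7e-06) and 1.23 in the LEC (adjusted p = 8e-08). In LII it was 0.76 in the MEC (adjusted p = 0.00034) and 0.35 in the LEC (adjusted p = 0.018). The layer difference of Grm8 in the MEC was not shown to differ from that in the LEC (0.06, 95% interval -0.23 to 0.35, adjusted p = 0.91). Over all ages, the layer LFCs of Grm8 without the libraries that stood apart were 0.65 in the MEC (adjusted p = 3.6e-06) and 0.59 in the LEC (adjusted p = 6.3e-06).

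**Figure D3:**
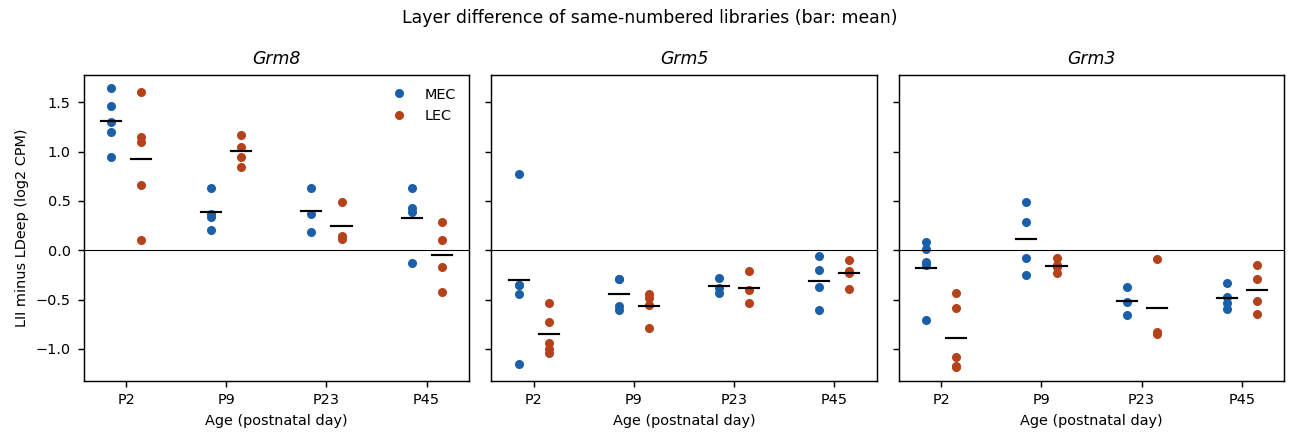
Difference in log2 CPM between the LII and LDeep libraries that carry the same replicate number (y axis, positive values higher in LII) against age (x axis) for Grm8, Grm5, and Grm3, in the MEC and LEC. Points are animals and black bars their means. For Grm8 all 10 points at P2 are positive and those at P45 lie on both sides of 0, whereas the LEC points of Grm5 and Grm3 are negative at all 4 ages.

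The postsynaptic group I receptor gene Grm5 had lower levels in LII, by 0.35 on the log2 scale in the MEC (LFC -0.35, SE 0.1, adjusted p = 0.0066, lower in LII in 15 of 16 animals) and by 0.51 in the LEC (LFC -0.51, SE 0.11, adjusted p = 9.4e-05, lower in all 16 animals). Without the libraries that stood apart these LFCs were -0.39 (adjusted p = 0.0012) and -0.47 (adjusted p = 7.6e-05). In the MEC limma voom called neither Grm5 (-0.23, adjusted p = 0.059) nor Grm3 (-0.17, adjusted p = 0.11), both described here from edgeR. At P2 the LEC LII libraries had 168, 231, 163, 194, and 193 CPM and the LDeep libraries 344, 383, 236, 388, and 372 CPM, without overlap (LFC -0.86, SE 0.19, adjusted p = 0.00069), where 5.04% of genes were lower in LII. In a fit of the P2 libraries alone this difference was not called (-0.8, adjusted p = 0.077). At P2 in the MEC the Grm5 LFC was -0.26 (adjusted p = 0.37), and here a single library mattered. MEC LII P2 replicate 1, which stood apart, had 621 CPM of Grm5 where the 4 others of its group had 264, 211, 300, and 256 CPM, and without it the layer LFC was -0.62 (adjusted p = 0.019). At P9 the MEC libraries had 398, 408, 346, and 420 CPM in LII and 609, 606, 426, and 511 CPM in LDeep, which did not overlap, although the LFC of -0.45 was not called (adjusted p = 0.12, 6.93% of genes called lower in LII). In the LEC at P9 the Grm5 LFC was called with the replicate number as a block (-0.57, adjusted p = 0.017) or without the libraries that stood apart (-0.52, adjusted p = 0.035), and not in the fit of all libraries without a block.

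Grm3, the group II receptor of neurons and astrocytes, was lower in LII by 0.28 in the MEC (LFC -0.28, SE 0.09, adjusted p = 0.011, lower in LII in 12 of 16 animals) and by 0.52 in the LEC (LFC -0.52, SE 0.09, adjusted p = 7.4e-06, lower in all 16). The MEC call was lost without the 4 libraries with cerebellar genes (-0.25, adjusted p = 0.052) and held without all 6 that stood apart (-0.26, adjusted p = 0.043). At P2 the LEC LII libraries had 82.3, 87.9, 70.0, 85.2, and 63.7 CPM and the LDeep libraries 124, 185, 93.8, 194, and 144 CPM (LFC -0.93, SE 0.16, adjusted p = 4.6e-05). At P23 in the MEC LII had 184, 163, and 152 CPM and LDeep 236, 234, and 240 CPM, without overlap (LFC -0.51, SE 0.21, adjusted p = 0.084, 5.97% of genes called lower in LII). At P45 in the MEC LII had 143, 155, 150, and 171 CPM and LDeep 199, 226, 228, and 215 CPM, again without overlap (LFC -0.49, SE 0.18, adjusted p = 0.058, 5.00% of genes called lower in LII). With the replicate number as a block both were called (-0.51, adjusted p = 0.013, and -0.49, adjusted p = 0.0066), as were the LFCs of the LEC at P23 (-0.6, adjusted p = 0.0063) and P45 (-0.4, adjusted p = 0.035). In the MEC at P9 the layers overlapped, with a mean of 7.75 log2 CPM in LII (SD 0.15, n = 4) and 7.63 in LDeep (SD 0.22, n = 4).

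Grm7 was lower in LII in the LEC (LFC -0.32, SE 0.06, adjusted p = 6.1e-06, in every one of 16 animals) and was not called in the MEC (-0.13, SE 0.06, adjusted p = 0.053), where it was called with the replicate number as a block (-0.13, adjusted p = 0.032). The difference between these layer contrasts was 0.19 (SE 0.08) and was not called (adjusted p = 0.3). At P9 the LEC libraries had 96.5, 118, 122, and 135 CPM in LII and 142, 145, 177, and 168 CPM in LDeep, without overlap (LFC -0.42, SE 0.11, adjusted p = 0.0039), where 5.16% of genes were lower in LII. In a fit of the P9 libraries alone this difference was not called (-0.35, adjusted p = 0.068). At P2 the layers differed in the MEC (LFC -0.36, adjusted p = 0.013) and in the LEC (LFC -0.29, adjusted p = 0.047), and neither call held without the libraries that stood apart (-0.31, adjusted p = 0.07, and -0.25, adjusted p = 0.13). Grm2 and Grm4 were not called between layers in either region, with LFCs of 0.23 and 0.47 in the MEC and -0.14 and -0.19 in the LEC. At P9 in the MEC, Grm2 was called higher in LII with the replicate number as a block (0.91, adjusted p = 0.032) and not without it. Over all 6 members edgeR called no difference between the layer contrasts of the 2 regions, a count of 0 that DESeq2 and limma voom also gave, with 1 member (Grm7) at an unadjusted p below 0.05, where 1.25% of genes were called, 0.942% with the positive and 0.303% with the negative sign.

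Cell type markers moved with the layers. Summed over 8 astrocyte genes the group medians were 4779 to 5509 CPM in LII and 2854 to 3600 CPM in LDeep at P23 and P45, and over 8 genes of myelinating oligodendrocytes they were 1174 to 4604 CPM in LII and 3834 to 17130 CPM in LDeep. The meningeal genes (8 genes) had medians of 753 to 1260 CPM in LII groups and of 46 to 203 CPM in LDeep groups. Over all ages, 8 of the 8 astrocyte genes were higher in LII in the MEC and 5 in the LEC, with none lower. Among all genes tested, 21.0% were higher and 19.9% lower in LII in the MEC, and 17.4% and 21.2% in the LEC. Grm3 and Grm5, which astrocytes also express, had the opposite direction in these contrasts. In the LEC at P2 the astrocyte sums overlapped between layers, with medians of 897 CPM in LII (814 to 1163) and 987 CPM in LDeep (584 to 1083). In the MEC at P2 they did not overlap, with 803 to 1200 CPM in LII and 556 to 761 CPM in LDeep. Neither receptor was called between the layers there, with LFCs of -0.23 for Grm3 and -0.26 for Grm5. Of 8 genes of neurons in general, 4 were lower in LII in the MEC and 5 in the LEC, with none higher (median LFCs -0.18 and -0.22), the direction of Grm5, Grm3, and Grm7. At P9 the group medians of their sums were 2780 CPM in LII and 3375 CPM in LDeep of the MEC, and 2923 and 3570 CPM in the LEC. The part of these cell types in the layer differences of the receptors was not tested.

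The same markers moved with age. From P2 to P9, when all 6 members rose, 5 of the 8 neuron genes rose and none fell (median LFC 0.4), and 6 of the 8 astrocyte genes rose and 1 fell (0.88). Among all genes tested, 27.7% rose and 26.3% fell at this step, and 27.1% rose and 28.7% fell from P9 to P23. The group medians of the summed neuron genes were 2069 to 2564 CPM at P2 and 2780 to 3570 CPM at P9. From P9 to P23, when Grm4 and Grm8 rose, 5 neuron genes rose and 1 fell, 7 astrocyte genes rose (median LFC 0.8), and all 8 genes of myelinating oligodendrocytes rose (5.81). Their part in the changes of the receptors with age was not tested.

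The region contrasts asked which receptors separate the MEC from the LEC. In LII 5 members were called, where 12.6% of genes were, 4 higher in the MEC (8.38% of genes) and 1 higher in the LEC (4.26%), with a median LFC of 0.36 over the members and 0.01 over all genes. In LDeep 1 member was called, Grm8, again higher in the LEC (5.78% of genes called, 2.81% higher in the MEC and 2.97% higher in the LEC). With the replicate number as a block, Grm2 and Grm7 were called in LDeep too, and Grm5 in LII, with the values given below. The difference between the 2 region contrasts equals that between the 2 layer contrasts, which called no member.

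In LII Grm2 was higher in the MEC with an LFC of 1.07 (SE 0.26, adjusted p = 0.0027), in 14 of 16 animals. The difference was clearest at P9, where MEC LII had 151, 167, 85.9, and 98.8 CPM and LEC LII 42.0, 36.0, 38.4, and 30.0 CPM. These groups did not overlap, and the LFC of 1.78 (SE 0.51) missed the threshold (adjusted p = 0.055, 1.05% of genes called higher in the MEC), which it passed without the libraries that stood apart (1.77, adjusted p = 0.032). At P45 MEC LII had 40.3, 70.8, 67.3, and 114 CPM and LEC LII 17.7, 46.9, 27.8, and 28.2 CPM (LFC 1.28, SE 0.51, adjusted p = 0.17). With the replicate number as a block both ages were called (1.74, adjusted p = 0.00065 at P9, and 1.22, adjusted p = 0.016 at P45). At P2 the MEC libraries scattered from 3.60 CPM in the library that lacked Slc17a7 to 52.1 CPM, around those of the LEC (9.50 to 24.8 CPM). Without the libraries that stood apart the LFC over all ages was 1.26 (adjusted p = 0.00045). In LDeep the LFC was 0.7 (95% interval 0.2 to 1.21) and was not called (adjusted p = 0.1), and with the replicate number as a block it was 0.63 (adjusted p = 0.01).

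Grm4 was higher in MEC LII than in LEC LII with an LFC of 0.91 (SE 0.23, adjusted p = 0.0048). At P23, where 1.17% of genes were called higher in the MEC, the MEC libraries had 41.2, 105, and 46.2 CPM and the LEC libraries 17.7, 20.9, and 19.2 CPM. The LFC of 1.74 (SE 0.52, adjusted p = 0.062) was not called, nor was it without the libraries that stood apart (1.18, adjusted p = 0.095), and it was called with the replicate number as a block (1.64, adjusted p = 0.024) and without MEC LII P2 replicate 1 alone (1.73, adjusted p = 0.027). At P45, where 2.64% of genes were called higher in the MEC, the MEC libraries had 41.2, 42.3, 37.4, and 41.6 CPM and the LEC libraries 13.1, 77.8, 11.3, and 12.8 CPM. The 105 CPM and the 77.8 CPM were those of libraries with cerebellar neuron genes, on opposite sides of the comparison, and the other LII libraries of the 2 ages did not overlap between regions. Without the libraries with cerebellar genes the P45 difference was called (LFC 1.69, adjusted p = 0.0058, against 0.52, adjusted p = 0.67, with them), and over all ages the LFC was 1.05 (adjusted p = 1e-04). Without all libraries that stood apart it was 0.89 (adjusted p = 9.9e-05).

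Grm4 moved with the cerebellar genes elsewhere too. The 4 libraries with these genes had 105, 77.8, 57.5, and 38.5 CPM of Grm4, against 2.89 to 49.1 CPM in the 58 libraries that did not stand apart, so 3 of them lay above that range and 1 inside it. In LEC LDeep at P45 the libraries had 12, 57.5, 16.8, and 43.1 CPM, and the second of these was the library with cerebellar genes whereas the fourth was not. The fourth held 1.37 summed CPM of the cerebellar genes. The part of cerebellar tissue in the Grm4 counts was not tested.

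**Figure D4:**
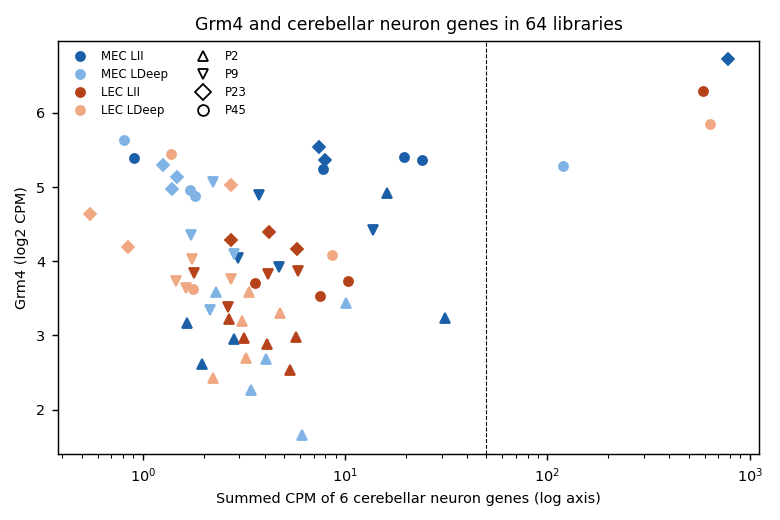
Level of Grm4 (y axis, log2 CPM) against the summed level of 6 cerebellar neuron genes (x axis, CPM, log axis) in the 64 libraries, with color for region and layer and shape for age. The dashed line at 50 CPM separates the 4 libraries with cerebellar genes (119 to 777 CPM) from the other 60, and among those 60 the P2 libraries other than MEC LII P2 replicate 1 lie below 4 in Grm4 while the MEC libraries of P23 and P45 lie near 5 on the log2 scale.

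Grm7 showed the most regular regional difference. In LII its level was higher in the MEC than in the LEC (LFC 0.36, SE 0.06, adjusted p = 4.4e-06), and this held in 16 of 16 animals. The P9 libraries of MEC LII had 168, 190, 147, and 186 CPM and LEC LII 96.5, 118, 122, and 135 CPM, without overlap (LFC 0.55, SE 0.11, adjusted p = 0.0012), where 1.05% of genes were higher in the MEC. At P23 the values were 135, 127, and 136 CPM against 109, 104, and 106 CPM (LFC 0.33, SE 0.13, adjusted p = 0.19, not called). At P45 they were 122, 124, 114, and 138 CPM against 81.1, 96.0, 102, and 107 CPM (LFC 0.37, adjusted p = 0.039), where 2.64% of genes were higher in the MEC. The groups were apart at each of these 3 ages, although the P45 call was lost without the libraries that stood apart (0.34, adjusted p = 0.14) and in 13 of the 18 fits that each left out 1 animal or library (0.31 to 0.43). In LDeep the LFC was 0.17 (95% interval 0.06 to 0.28, adjusted p = 0.058), and with the replicate number as a block it was called (0.17, adjusted p = 0.028).

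Grm3 was also higher in MEC LII (LFC 0.36, SE 0.09, adjusted p = 0.0047, in 15 of 16 animals). At P2, where the difference was called by itself (LFC 0.67, SE 0.16, adjusted p = 0.0069, 4.86% of genes higher in the MEC), the MEC libraries had 146, 132, 87.4, 150, and 106 CPM and the LEC libraries 82.3, 87.9, 70.0, 85.2, and 63.7 CPM. Without the libraries that stood apart the P2 call was lost (0.6, adjusted p = 0.068) and that over all ages was kept (0.35, adjusted p = 0.017). Grm5 had an LFC of 0.27 in LII (SE 0.11, adjusted p = 0.081, and 0.26, adjusted p = 0.041 with the replicate number as a block) and of 0.11 in LDeep (SE 0.1, adjusted p = 0.7). Its call in LII at P2 (LFC 0.8, SE 0.19, adjusted p = 0.005) rested on MEC LII P2 replicate 1, without which the LFC was 0.44 (adjusted p = 0.19).

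Grm8 was the member with higher levels in the LEC, in LII (LFC -0.39, SE 0.1, adjusted p = 0.0058, in 13 of 16 animals) and in LDeep (LFC -0.45, SE 0.11, adjusted p = 0.0031, in 15 of 16 animals). The largest single-age difference in LII was at P9, with 36.2, 31.9, 30.4, and 20.1 CPM in the MEC and 52.3, 48.7, 53.7, and 57.9 CPM in the LEC (LFC -0.84, SE 0.2, adjusted p = 0.014), where 0.583% of genes were higher in the LEC. This call was lost in 3 of the 18 fits that each left out 1 animal or library (-0.96 to -0.64). At the other ages no difference in LII was called, with LFCs of -0.35 at P2 (adjusted p = 0.3), -0.36 at P23 (adjusted p = 0.46), and -0.03 at P45 (adjusted p = 0.99). In LDeep at P45 the MEC libraries had 41.4, 41.6, 44.1, and 40.2 CPM and the LEC libraries 55.3, 57.1, 54.7, and 54.0 CPM, which did not overlap (LFC -0.4, SE 0.2, adjusted p = 0.47, 0.783% of genes called higher in the LEC). At P2 the LDeep value was -0.74 (adjusted p = 0.082), and without the libraries that stood apart it was -0.92 (adjusted p = 0.023), and with the replicate number as a block -0.75 (adjusted p = 0.034). Both regional calls of Grm8 over all ages were kept without these libraries (-0.44, adjusted p = 0.0027, and -0.5, adjusted p = 0.0014).

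No member was called by edgeR for a change of the region difference between younger and older ages (4.38% of genes called, 2.08% with the positive and 2.30% with the negative sign). At an unadjusted p below 0.05 there was 1, Grm5, which DESeq2 called (-0.47, adjusted p = 0.042) and limma voom did not. With the replicate number as a block Grm5 was called as well (-0.43, adjusted p = 0.03). Grm4 had a value of 0.32 (SE 0.33, adjusted p = 0.69), and of 0.72 without the libraries that stood apart (adjusted p = 0.05, the threshold not being passed).

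Across the 16 group means the members did not follow a single pattern. Grm5 and Grm7 were alike (Pearson r = 0.81 over 16 groups), as were Grm3 and Grm5 (0.79) and Grm2 and Grm4 (0.77), whereas Grm8 had r = -0.32 with Grm5 and -0.23 with Grm7. Among all genes tested, those with the most similar group means included Pstpip2, Acan, and Trpm2 for Grm2 (r = 0.925, 0.92, and 0.916), Cecr5 and Slc9a7 for Grm3 (0.932 and 0.917), and Atp2b2, Nefh, and Gfm1 for Grm4 (0.983, 0.974, and 0.973). For Grm5 they included Ntm, Rims4, and Kctd8 (0.934, 0.905, and 0.9), for Grm7 Lppr5, Galnt18, and Rims4 (0.934, 0.916, and 0.915), and for Grm8 Nudt7, Pla2g4a, and Rgs6 (0.938, 0.935, and 0.935). The 16 points share libraries, animals, and the course of development, so these values are descriptions.

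The genes through which the receptors act were described from lists chosen by function, and none of their genes was called from P23 to P45. Their counts are to be read against the shares of all genes tested that were called in either direction, which were 77.3% in older against younger animals, 54.0% from P2 to P9, 55.8% from P9 to P23, 40.8% between layers in the MEC and 38.6% in the LEC, and 12.6% between regions in LII and 5.78% in LDeep. Counts near these shares are no result about a list. Of 9 genes of the Gq pathway of group I receptors, 5 were up-regulated and 2 down-regulated in P23/P45 against P2/P9 (38.3% and 39.0% of all genes). The leading gene was Itpr1, the calcium channel opened by inositol trisphosphate (LFC 2.94, SE 0.11, adjusted p = 8.9e-13), followed by the protein kinase C genes Prkcb (1.28, SE 0.09) and Prkca (0.82, SE 0.07). The median LFC of the list was 0.45, with -0.008 over all genes. From P2 to P9 5 of the 9 rose and 3 fell, and from P9 to P23 5 rose and 2 fell. Between layers, the phospholipase C gene Plcb1 was lower in LII in the MEC (LFC -0.64, SE 0.08) and the LEC (-0.56, SE 0.08), the direction of Grm5, whereas Plcb3 was higher in LII (0.76, SE 0.07, and 0.69, SE 0.07). In all, 3 of the 9 were higher and 1 lower in MEC LII, and 2 higher and 3 lower in LEC LII. In LII, Prkcb (0.49, SE 0.09, adjusted p = 6.2e-05) and Prkca (0.48, SE 0.09, adjusted p = 5.6e-05) were higher in the MEC than in the LEC, and in LDeep no gene of the list was called between regions.

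Of 6 Homer and Shank genes, whose products tether group I receptors in the postsynaptic density, 3 rose and 1 fell with age, where 77.3% of all genes were called. Homer1 (0.86, SE 0.05), Shank1 (0.85, SE 0.23), and Shank3 (0.6, SE 0.08) were the 3 that rose, and Homer2 fell by 0.53 (LFC -0.53, SE 0.1). The median was 0.42, and 3 rose and 1 fell both from P2 to P9 and from P9 to P23. Homer3 was higher in LII in both regions (0.63, SE 0.16, adjusted p = 0.00097 in the MEC, and 0.7, SE 0.16, adjusted p = 0.00033 in the LEC). Between regions 1 of the 6, Homer2, was higher in MEC LII (0.47, SE 0.1, adjusted p = 0.00033).

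For the Gi/o pathway of groups II and III, 12 genes were tested. In older animals 6 were up-regulated and 3 down-regulated, where 77.3% of all genes were called, led by the subunits of the inwardly rectifying potassium channels opened by G protein βγ subunits, Kcnj9 (LFC 1.78, SE 0.09), Kcnj3 (1.62, SE 0.09), and Kcnj6 (1.25, SE 0.17). Gnai3, a Gi alpha subunit, fell by 1.47 (LFC -1.47, SE 0.05). The median over the 12 was 0.19. From P2 to P9 6 rose and 2 fell, and from P9 to P23 5 rose and 3 fell. In LII 3 of the 12, the adenylyl cyclase genes Adcy3 (0.46, SE 0.09), Adcy1 (0.41, SE 0.14), and Adcy2 (0.39, SE 0.08), were higher in the MEC than in the LEC, as were Grm2, Grm3, Grm4, and Grm7, and Gnai2 was lower (-0.17, SE 0.05). Adcy3 had a lower level in LII of both regions (-0.33, SE 0.09, and -0.53, SE 0.09).

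Of 10 genes for receptor binding and desensitization, 5 rose and 3 fell in older animals, near the 77.3% of all genes called. The scaffold gene Grasp (2.1, SE 0.11), the G protein regulator Rgs4 (1.55, SE 0.08), and Ncdn, whose product binds Grm5 (1.17, SE 0.06), rose, and Grip1 fell by 1.23 (LFC -1.23, SE 0.06). The median was 0.33. From P2 to P9 5 rose and 1 fell, and from P9 to P23 5 rose and 3 fell. In LII of the LEC 5 of the 10 were lower than in LDeep, among them Adrbk2, a receptor kinase (-0.6, SE 0.09), and Elfn1, a postsynaptic protein that binds Grm7 across the synapse (-0.47, SE 0.14, adjusted p = 0.0045). In the MEC 4 were lower and 1 was higher in LII. Of 2 genes tested for the breakdown of N-acetylaspartylglutamate, an agonist of Grm3, Folh1 rose with age (2.09, SE 0.14, adjusted p = 1e-09) and was higher in MEC LII than in MEC LDeep (0.43, SE 0.13, adjusted p = 0.0048), and Naalad2 was higher in LEC LII than in LEC LDeep (0.92, SE 0.28, adjusted p = 0.0077).

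All 6 genes of glutamate transport changed with age, 5 up and 1 down, where 77.3% of all genes were called. The astrocyte transporter gene Slc1a2 (LFC 2.79, SE 0.17), Slc17a7 (1.64, SE 0.11), and Glul, the glutamine synthetase gene (1.58, SE 0.11), rose, and Slc17a6, the second vesicular transporter, fell by 1.74 (LFC -1.74, SE 0.15). The median was 1.26. From P2 to P9 5 of the 6 rose, and from P9 to P23 4 rose and 1 fell. Between layers 3 of the 6 were higher and 1 lower in LII in both regions, and the median LFC of the list was 0.34 (MEC) and 0.22 (LEC). The 3 higher in LII were Slc1a3, an astrocyte transporter gene (0.73 and 0.42), Glul (0.67 and 0.51), and Slc17a6 (0.46 and 0.63). The neuronal transporter gene Slc1a1 was lower in LII in the MEC (-0.36, SE 0.05) and the LEC (-0.46, SE 0.05) and higher in the MEC than in the LEC in LII (0.37, SE 0.05) and LDeep (0.26, SE 0.05). Grm6 fell with age by 0.76 (LFC -0.76, SE 0.16, adjusted p = 0.00047) and was lower in LII in the MEC (-0.74, SE 0.21) and the LEC (-0.98, SE 0.22), at counts of 2 to 85 per library.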

How the data were processed

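The authors used Trimmomatic 0.33 for trimming and STAR 2.4.0 for alignment to Rn6, and counted read pairs on RefSeq exons by strand with featureCounts (Subread 1.4.6-p1). Pairs overlapping several genes were counted for each, which can affect near copies. The deposited values are raw counts per gene. Here the counts were analyzed with the quasi-likelihood test of edgeR 4.0.16 in R 4.3.3, with TMM library sizes, filterByExpr, and Benjamini-Hochberg adjustment over all genes tested (threshold 0.05). Layer and region contrasts used all 64 libraries with 16 group means (12521 genes). Age contrasts used counts summed per animal (13092 genes). The SE is the size of the LFC divided by the square root of F. Levels are CPM on TMM library sizes, with a prior count of 2 on the log2 scale. RPKM is CPM divided by exon length. The 95% intervals use the SE and a normal approximation. Named genes were the 6 members, per pathway list the called genes with the largest LFC (up to 4), and 3 nearest genes by Pearson r. Some genes that this rule names are not reported here. Members and lists were chosen with earlier results of these data known. Adcy9, Elfn2, Rimkla, Rimklb, and Cux1 were not analysed here. Alternatives were RLE size factors, DESeq2 1.42.0, limma 3.58.1 with voom, no filter, subsets of libraries, a replicate block, and each animal left out. The fits were tested on simulated counts. The libraries that stood apart, and fits without them, were chosen after seeing the data. No replicates held identical counts, with a chi-square per degree of freedom of at least 3.08 over 100 replicate pairs. The study calls its replicates biological, and the labels do not say which libraries share an animal.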

Additional observations from a re-analysis of the deposited data

Results flagged for a closer look

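Among 72 sets of 4 or 5 libraries (6 genes in 12 groups), 5 held a library far from the others, and chance gives about 1 in 20. For Grm4 these were MEC LII P2 replicate 1 (4.92 log2 CPM, nearest 3.23), which was almost without Slc17a7, LEC LII P45 replicate 2 (6.29, nearest 3.74), which held cerebellar neuron genes, and LEC LII P9 replicate 4 (3.38, nearest 3.83). For Grm5 it was LEC LDeep P2 replicate 3 (7.89, nearest 8.43), and for Grm8 MEC LDeep P9 replicate 4 (3.71, nearest 4.67). The layer difference of Grm8 differed between older and younger ages (-0.65 on the log2 scale, adjusted p = 0.0019 in edgeR).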

How the results depend on the processing

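Of 1698 member values recomputed for the 11 main contrasts, 1642 kept their side of the threshold, 24 lost a call, and 30 gained one. Values that changed sign without a call in either fit are counted among the 1642. Another 2 changed sign with a call in 1 of the fits. These 2 were older against younger Grm3 in MEC LII alone (-0.07) and Grm5 in LEC LII alone (0.34). Fits on LEC LDeep, LEC LII, MEC LDeep, and MEC LII alone, each with fewer libraries, called 4768, 4608, 4210, and 4564 genes for P23 against P9 (7305 with all libraries), and 10, 11, 13, and 2 for P45 against P23 (60). For P9 against P2 they called 4016 in LEC LDeep, 3859 in LEC LII, and 4033 in MEC LII (7076). Members called for P23 against P9 were 1 in LEC LDeep, 0 in LEC LII, and 1 in MEC LDeep, for P9 against P2 3 in LEC LDeep, 3 in MEC LDeep, and 3 in MEC LII, and for older against younger 5 in LEC LII. For P45 against P23, 482 genes were called with all 64 libraries as separate samples, 212 by DESeq2, 26 without the animals of the libraries that stood apart, and 11 to 86 with 1 animal left out. The contrast of the layer differences of the MEC and LEC called 156 genes, 103 without the libraries with cerebellar genes, and 63 to 218 with 1 animal or library left out. That of the region differences between ages called 548 genes, and 302 to 666 with 1 left out. DESeq2 called 1 member in it and 2 in the LDeep region contrast, where leaving out 1 animal or library gave 0 to 1 and 1 to 2, and limma voom called 1 member in the MEC layer contrast. The cause of these changes was not tested. A replicate block, with the replicate number as an animal, changed 5 of 42 member calls outside single ages, all gained. It called 3 members in the LDeep region contrast, 1 for the region difference between ages, 23 single-age member differences (13 without it), and 286 genes for the layer difference of the MEC against that of the LEC. For the pairing, deviations from group means were correlated. Of 96 same-number pairs, 60 had r above 0.1 (mean 0.155, lowest -0.382), and of 300 pairs of different numbers of 1 age, 83 did (mean -0.049). The deviations sum to 0 within a group, so a positive mean of the first goes with a negative mean of the second, which is no separate reference. Of 64 libraries, 33 correlated best with their own number, where an age offered 3 to 5 numbers. Fits on the libraries of 1 age alone lost some single-age member calls, among them those of Grm5 and Grm7 between the layers of the LEC at P2. They gained others, among them those of Grm3 between the layers of both regions at P23. The lowest counts of Grm2, Grm4, and Grm8 were 36, 25, and 36. In the MEC layer contrast the SE was 0.25 for Grm2, 0.23 for Grm4, and 0.1 for both Grm8 and Grm5. The part of low counts in these SEs was not tested.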
